A study of Mus musculus with 6 samples.

Results

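The enzyme families of drug and xenobiotic metabolism were described across cell classes, villus position and region in single epithelial cells of the mouse jejunum. The members were the genes listed in both deposited tables whose symbol starts with Gst, Ces, Cyp, Ugt, Sult, Akr or Ephx. This rule gave 54 genes of the 5674 that the tables share, of which 17 were Gst, 6 Ces, 19 Cyp, 2 Ugt, 3 Sult, 6 Akr and 1 Ephx. Together they held 1.14% of the unique molecular identifiers (UMIs), each of which stands for 1 captured mRNA molecule. One member, Gstp-ps, is annotated as a processed pseudogene. The members lie on 15 chromosomes, and several sit in clusters of related genes. Examples are the 5 Gstm genes on chromosome 3, the Ces2 genes on chromosome 8 and the 3 Akr1c genes on chromosome 13.

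The samples came from 3 mice aged 120 days on a mixed background of CD-1 and C57BL/6. Each mouse gave 1 sample of anterior jejunum (piece 3 of 12 along the small intestine) and 1 of posterior jejunum (piece 7 of 12). Villus and crypt cells were combined in equal parts, and living cells positive for EpCAM, an epithelial surface protein, were sorted singly into plates for MARS-seq, which counts the 3′ ends of mRNAs. The labels name no genotype, transgene, treatment or sex for any group, although the study as titled is about the transcriptional regulator ID2 and hormone-secreting cells.

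The recovered data held 2043 cells, with 198 to 568 per anterior and 224 to 511 per posterior sample, and a median of 3468 UMIs per cell. Epcam itself had a UMI in 76.7% of cells. Clusters formed without the members gave 912 enterocyte-like cells (88 to 222 per sample), 646 goblet-like cells (25 to 288) and 212 progenitor-like cells of the crypt (9 to 87), beside 38 tuft-like and 235 unnamed cells. Mouse 1 held 538 of the 646 goblet-like cells. Its enterocyte-like cells were mostly of cluster 6 (55.1%), whereas cluster 1 (46.7%) and cluster 2 (34.8%) held most of those of mice 2 and 3. Between 48.9% and 57.1% of a sample's cells came from wells labelled positive for a sort marker that the labels do not name. Of the plate-and-well labels, 134 occurred in more than 1 sample, and the highest correlation between 2 cells that share one was 0.496, and all 2043 profiles were distinct.

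Most of these enzymes act in sequence. Cytochromes P450 (Cyp) oxidise lipophilic drugs, toxins, sterols and fatty acids with electrons from the reductase Por, carboxylesterases (Ces) split esters and amides, epoxide hydrolases (Ephx) open reactive epoxides, and aldo-keto reductases (Akr) reduce aldehydes and ketones. Glutathione transferases (Gst), UDP-glucuronosyltransferases (Ugt) and sulfotransferases (Sult) then attach glutathione, glucuronic acid or sulfate, and the products leave through transporters such as Abcc2. In the small intestine this system is best known in absorptive enterocytes, where it limits how much of an oral drug reaches the portal blood.

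Of the enterocyte-like, goblet-like and progenitor-like classes, the first held the highest mean summed level in each of the 7 families. Levels are UMIs per 10000 UMIs of the cell, averaged over the cells of a class in a sample and then over the 2 regions of each mouse. A UMI counts a molecule once whatever its length, so no length scaling was made. Over the 54 members the level was 161 ± 52.9 in enterocyte-like cells (SD, n = 3 mice, 1.61% of their UMIs), 42.9 ± 12.9 in goblet-like cells and 48.8 ± 6.95 in progenitor-like cells. By sample, the enterocyte-like sum ran from 97.0 to 239, the goblet-like sum from 28.9 to 66.7 and the progenitor-like sum from 41.7 to 65.0, so every enterocyte-like sample lay above every sample of these other classes. Unnamed cluster 9 (118 cells with a median of 864 UMIs, led by Lars2, Mir6240, Lyz1 and Itln1) had a sum of 116 ± 18.6, and its Akr sum of 15.9 ± 6.88 was not below that of enterocyte-like cells.

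The families differed in how far the classes stood apart. Summed Cyp level was 40.5 ± 7.10 in enterocyte-like, 11.8 ± 3.00 in goblet-like and 5.07 ± 0.98 in progenitor-like cells, and summed Ces level was 31.6 ± 13.6, 5.37 ± 2.70 and 4.71 ± 3.07. In both families no enterocyte-like sample overlapped a sample of the other classes. Summed Akr level was 15.2 ± 3.20 in enterocyte-like and 12.4 ± 0.94 in progenitor-like cells, whose samples overlapped (11.1 to 19.0 against 11.1 to 14.8), and 5.57 ± 0.19 in goblet-like cells. Summed Gst level was 54.2 ± 32.7, 16.3 ± 7.82 and 21.7 ± 3.02 in enterocyte-like, goblet-like and progenitor-like cells. Its range over enterocyte-like samples, 18.9 to 109, reached into that of the other classes. Within each sample with a value, the Gst sum was higher in enterocyte-like cells than in these classes. The small families followed the Cyp and Ces order in part: Sult summed to 11.4 ± 3.11, 2.19 ± 0.33 and 3.47 ± 0.67, Ugt to 4.08 ± 1.52, 0.71 ± 0.20 and 1.21 ± 0.29, and Ephx2, the only epoxide hydrolase among the members, stood at 3.65 ± 0.61, 0.94 ± 0.68 and 0.26 ± 0.12.

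**Figure D1:**
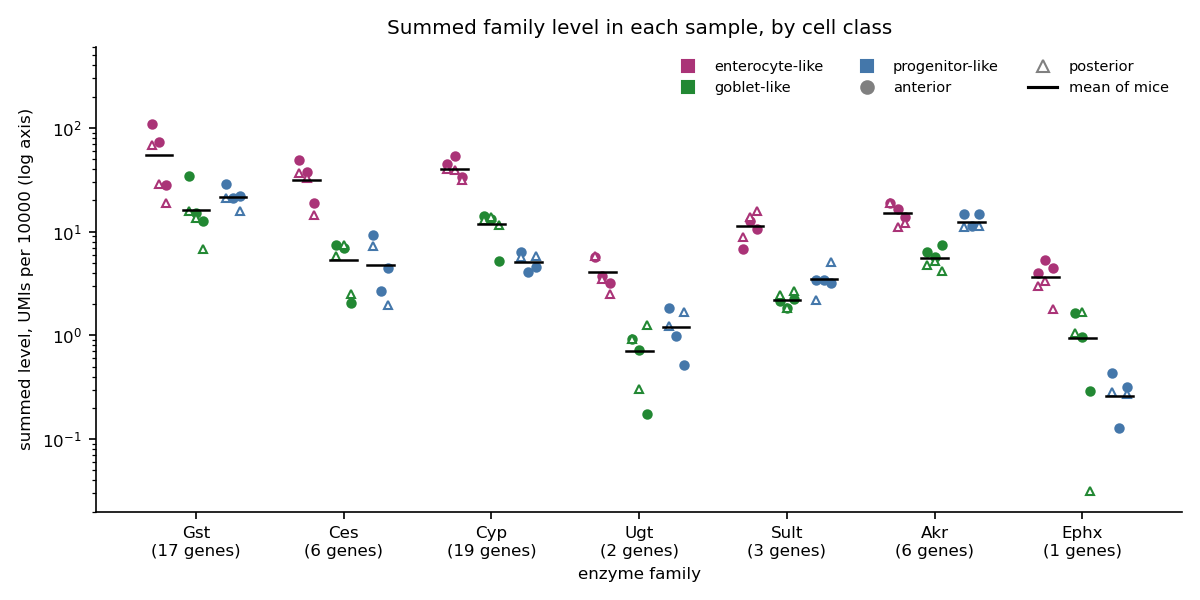
Summed level of each family (UMIs per 10000, log axis) in every sample with a value, by cell class, with circles for anterior samples, triangles for posterior samples and bars for the mean over mice. Enterocyte-like samples lie above goblet-like samples in every family but Gst, and the Akr sums of enterocyte-like and progenitor-like samples overlap (11.1 to 19.0 against 11.1 to 14.8).

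Some of the members that differed along the villus in a test given below are shown here. Each is given with the 250 bases before its RefSeq start (GRCm38.p6), 5′ to 3′ on the strand of the gene. Of those shown, only Cyp3a11 kept its call in each of the 3 fits that leave out a mouse. Cyp3a13 also kept its call and is not shown. RefSeq held such a stretch for 47 of the 54 members and for 27025 gene symbols in all. Ces2a and Ces2g are carboxylesterase genes of 1 cluster on chromosome 8, with Ces2c and Ces2e between them, Akr1c12 and Akr1c13 are aldo-keto reductase genes on chromosome 13, with Akr1c19 between them, that reduce steroids and other ketones, and Cyp3a11 on chromosome 5 encodes a broad drug-oxidising P450 that is a standard target of the receptor PXR (Nr1i2). In GENCODE vM21 (GRCm38) Ces2a spans chr8:104734003-104741634, Ces2g chr8:104961718-104969537, Akr1c12 chr13:4268176-4279433, Akr1c13 chr13:4191150-4205596 and Cyp3a11 chr5:145854426-145879964. For Ces2a and Ces2g the stretch ends at the base before the GENCODE start, while for Akr1c12, Akr1c13 and Cyp3a11 RefSeq places the start further in, so the stretch overlaps the GENCODE gene. Capitals mark CAAAG or CTTTG in the Ces2 genes, the core of sites that HNF4 factors bind, runs of GTTAA or TTAAC in the Akr1c genes, which is the core of HNF1 sites, and the longer HNF4-type element CAAAGTCCA in Cyp3a11.
Ces2a, chr8:104733753-104734002, plus strand: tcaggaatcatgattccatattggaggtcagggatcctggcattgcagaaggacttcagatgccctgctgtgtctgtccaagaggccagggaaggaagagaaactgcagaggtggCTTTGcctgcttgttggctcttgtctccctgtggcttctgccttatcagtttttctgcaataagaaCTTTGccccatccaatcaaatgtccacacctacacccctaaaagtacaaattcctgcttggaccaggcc
Ces2g, chr8:104961468-104961717, plus strand: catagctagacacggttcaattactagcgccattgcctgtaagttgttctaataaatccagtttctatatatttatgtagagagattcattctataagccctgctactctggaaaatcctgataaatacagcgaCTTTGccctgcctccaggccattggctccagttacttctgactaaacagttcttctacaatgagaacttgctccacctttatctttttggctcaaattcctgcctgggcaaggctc
Akr1c12, chr13:4279400-4279649, minus strand: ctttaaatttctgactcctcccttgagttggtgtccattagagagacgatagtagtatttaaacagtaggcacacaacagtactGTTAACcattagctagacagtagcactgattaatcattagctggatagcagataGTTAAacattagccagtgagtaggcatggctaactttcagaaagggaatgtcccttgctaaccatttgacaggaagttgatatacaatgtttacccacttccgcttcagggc
Akr1c13, chr13:4190937-4191186, plus strand: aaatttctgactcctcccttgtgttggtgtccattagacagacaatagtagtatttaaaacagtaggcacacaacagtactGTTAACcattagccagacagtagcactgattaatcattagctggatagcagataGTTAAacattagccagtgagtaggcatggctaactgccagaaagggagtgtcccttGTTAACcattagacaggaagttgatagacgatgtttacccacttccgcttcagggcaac
Cyp3a11, chr5:145879855-145880104, minus strand: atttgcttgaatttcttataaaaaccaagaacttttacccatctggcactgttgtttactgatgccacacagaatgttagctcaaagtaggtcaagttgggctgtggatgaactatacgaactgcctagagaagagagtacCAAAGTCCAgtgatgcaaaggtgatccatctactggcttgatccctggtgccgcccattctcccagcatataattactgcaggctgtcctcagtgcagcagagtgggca
The Akr1c12 and Akr1c13 stretches were 92.5% identical (235 of 254 aligned positions), whereas those of Ces2a and Ces2g were 52.3% identical, close to the 47.2% and 52% found for unrelated pairs (Cyp3a11 with Ces2a and with Akr1c13). CAAAGTCCA, searched on both strands, was present in 0.451% of all 27025 stretches and in 3 of the 47 members (Cyp2c65, Cyp2c68 and Cyp3a11), in Cyp3a11 at 109 bases before the start. CAAAG, which is part of the longer element, was present in 52.2% of all stretches and in 35 of 47 members, and GTTAA in 24.3% and in 14 of 47. The antioxidant response element TGACNNNGC was present in 11.5% of all stretches and in 3 of 47 members, and the core of the xenobiotic response element, GCGTG, in 30.9% and in 12 of 47. These are matches of letters in a short window and do not show that a factor binds there.

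The first comparison asked which members differ between absorptive and mucus-secreting cells. Of 53 members tested, 37 were higher and 2 lower in enterocyte-like than in goblet-like cells (limma, Benjamini-Hochberg adjusted p under 0.05 over 5314 genes). Over all genes 20.1% were called higher and 4.48% lower, so 24.5% were called in all, against 73.6% of the members. The median log2 change, enterocyte-like minus goblet-like, was 1.497 over the members and 0.48 over all genes. Changes are on the scale log2(level + 0.2), which understates those of low genes. Calls higher in enterocyte-like cells were made for 13 of 18 Cyp genes, 9 of 17 Gst, 5 of 6 Ces, 4 of 6 Akr, 3 of 3 Sult, 2 of 2 Ugt and Ephx2. Without cluster 1, whose cells have few UMIs (median 1543.5), 43 members were higher and 1 lower (28.1% and 10.3% of all genes). Among cells with at least 5000 UMIs 47 were higher and 2 lower (35.3% and 4.23% of all genes). Cyp4f40 was too low to be tested in the class comparisons.

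The P450s with the largest differences are enzymes of fatty acid and drug oxidation. Cyp4f14, a hydroxylase of leukotrienes and vitamin E, had a lowest, median and highest sample level of 3.75, 5.24 and 7.42 in enterocyte-like and of 0.09, 0.61 and 2.58 in goblet-like cells, a log2 change of 2.73 ± 0.39 (SE, adjusted p = 6.8e-05). Cyp3a13, a drug oxidase, ranged from 4.10 over a median of 5.05 to 6.56 against 0.23, 0.65 and 1.98, a change of 2.52 ± 0.38. Cyp2d26 ranged from 4.67 over 7.10 to 9.46 against 0.52, 1.07 and 2.23, a change of 2.498 ± 0.41. For all 3 genes the lowest enterocyte-like sample was above the highest goblet-like sample.

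Among the hydrolases and reductases, the carboxylesterases Ces2e and Ces2a and the aldehyde reductase Akr7a5 differed most. Ces2e, which hydrolyses drug esters and lipids, stood at 9.21, 15.3 and 20.8 (lowest, median, highest) in enterocyte-like and at 1.13, 2.68 and 4.99 in goblet-like samples, a change of 2.44 ± 0.36. Ces2a stood at 2.71, 11.8 and 21.5 against 0.79, 1.73 and 3.69, a change of 2.42 ± 0.35. Its groups overlapped across mice, through posterior mouse 3 at 2.71, but the enterocyte-like level was higher within each of the 6 samples. Akr7a5, which reduces aflatoxin aldehydes and succinic semialdehyde, stood at 1.84, 2.14 and 2.85 against 0.04, 0.32 and 0.49, a change of 2.40 ± 0.36 with no overlap.

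The conjugating enzymes were higher in enterocyte-like cells as well. The glutathione transferase Gstm3 had levels of 1.91, 15.002 and 42.3 (lowest, median, highest) against 0.02, 3.11 and 9.83 in goblet-like cells, a change of 2.59 ± 0.34 (adjusted p = 3.3e-05). Sult2b1, which sulfates cholesterol, stood at 2.21, 4.67 and 6.62 against 0.13, 0.50 and 1.19, a change of 2.71 ± 0.42, and its samples did not overlap. Sult1b1, a sulfotransferase of phenols and thyroid hormones, stood at 2.45, 5.15 and 7.84 against 0.71, 0.87 and 2.07, a change of 2.04 ± 0.34, again with no overlap. Both glucuronosyltransferases were higher, Ugt2b34 by 1.96 ± 0.35 and Ugt2a3 by 2.28 ± 0.41. Gsto1, an omega-class transferase that also reduces dehydroascorbate, was higher by 1.88 ± 0.29, from 2.82 in the median goblet-like sample to 9.78.

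The 2 members higher in goblet-like cells were Gsta4 and Cyp2s1. Gsta4, the alpha-class transferase that conjugates aldehydes of lipid peroxidation, had levels of 3.00, 3.68 and 4.68 in goblet-like and of 0.24, 1.31 and 3.08 in enterocyte-like samples, a change of -1.56 ± 0.38 (adjusted p = 0.0055). The goblet-like level was higher in 6 of 6 samples, and the groups overlapped only through anterior mouse 1, whose enterocyte-like level was 3.08. Within the goblet-like class, Gsta4 was at 5.91 in cluster 7, which holds the cells with the most UMIs (70.9% of cells with a Gsta4 UMI), and at 2.37 and 2.67 in clusters 3 and 4. Without mouse 2 the change was -1.26 with an adjusted p of 0.099, and with anterior samples alone it was -0.96 with an adjusted p of 0.093. Cyp2s1, an epithelial P450, had levels of 0.34, 1.22 and 3.78 against 0.36, 0.41 and 0.69, a change of -1.22 ± 0.43 (adjusted p = 0.046), and was higher in goblet-like cells in 5 of 6 samples. The level was 2.25 and 1.183 in goblet-like clusters 3 and 4 and 0.36 in cluster 7, whose cells had a median of 10470 UMIs against 1374 and 2471 in the other two, and the change became 0.12 among cells with at least 5000 UMIs. It was also lost without mouse 1 (adjusted p = 0.097) and without mouse 2 (adjusted p = 0.42).

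RNA of one class was also found in cells of another. The 18 enterocyte markers stood in goblet-like cells at 11.1 to 28.5% of their enterocyte-like level (median 19.4%) and in progenitor-like cells at 3.88 to 36.9% (median 9.62%). The members had a median of 25.8% and 25.3%, and 21 of the 54 were above the highest enterocyte marker in each class. The part of such RNA in the levels of single members was not tested. The median UMI count of a cell was 2524 to 10096 in enterocyte-like, 1974 to 7573 in goblet-like and 8981 to 15436.5 in progenitor-like samples.

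The second comparison asked which members differ between absorptive cells and the dividing cells of the crypt. Of 53 members tested, 32 were higher in enterocyte-like cells and 0 lower, or 60.4%, against 32.9% of all genes (17.3% higher and 15.6% lower). With cluster 1 left out 34 were higher and 1 lower (13.2% and 15.1% of all genes), and among cells with at least 5000 UMIs 35 were higher and 1 lower (15.1% and 17.8%). The median log2 change, enterocyte-like minus progenitor-like, was 1.37 over the members and 0.09 over all genes. Calls were made for 14 of 18 Cyp, 8 of 17 Gst, 4 of 6 Ces, 2 of 2 Ugt, 2 of 3 Sult and Ephx2, but for only 1 of 6 Akr genes, Akr1b7.

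The P450s, Ces2 enzymes and Ephx2 had the largest differences. Cyp2d26 had levels of 0.12, 0.37 and 0.56 (lowest, median, highest) over the 5 progenitor-like samples with enough cells, against 4.67, 7.10 and 9.46 in enterocyte-like cells, a change of 3.85 ± 0.41 (adjusted p = 4.0e-06). Cyp4f14 differed by 3.45 ± 0.39, with progenitor-like levels of 0.09 to 0.68, and Cyp3a13 by 3.25 ± 0.38, with levels of 0.24 to 0.55. All 3 were without overlap between the classes. The smaller Cyp3a genes followed, Cyp3a11 at 2.72 ± 0.37 and Cyp3a25 at 2.70 ± 0.41. Cyp2d26 and Cyp3a25 share 29.9% and 22.4% of the 40-base words at their 3′ ends with other genes. Ces2a differed by 3.40 ± 0.35 (0.06, 0.76 and 2.76 in progenitor-like samples) and Ces2e by 2.69 ± 0.36. Ephx2, the soluble hydrolase of fatty acid epoxides, differed by 3.03 ± 0.46, from 0.13, 0.29 and 0.44 to 1.80, 3.63 and 5.35, with no overlap.

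Several reductases and transferases had similar levels in both classes. Gsto1 had levels of 9.06, 10.6 and 11.5 in progenitor-like and of 9.43, 9.78 and 14.4 in enterocyte-like samples, a change of 0.05 ± 0.29. Akr1a1, the general aldehyde reductase, had levels of 7.09, 7.74 and 8.86 against 6.72, 8.18 and 9.69, a change of 0.11 ± 0.30. Akr7a5 changed by 0.18 ± 0.36 and Akr1c13 by 0.29 ± 0.40, and Akr1c12 by -0.64 ± 0.43. In each of these the classes overlapped, while the same genes other than Akr1c12 were called higher in enterocyte-like than in goblet-like cells. The 5 members with a change below 0 (Akr1c12, Gstt2, Gstm5, Cyp51 and Gstt3) all missed the threshold. Cyp51, the sterol demethylase of cholesterol synthesis, had levels of 0.20 to 0.59 in progenitor-like and 0.16 to 0.63 in enterocyte-like samples.

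**Figure D2:**
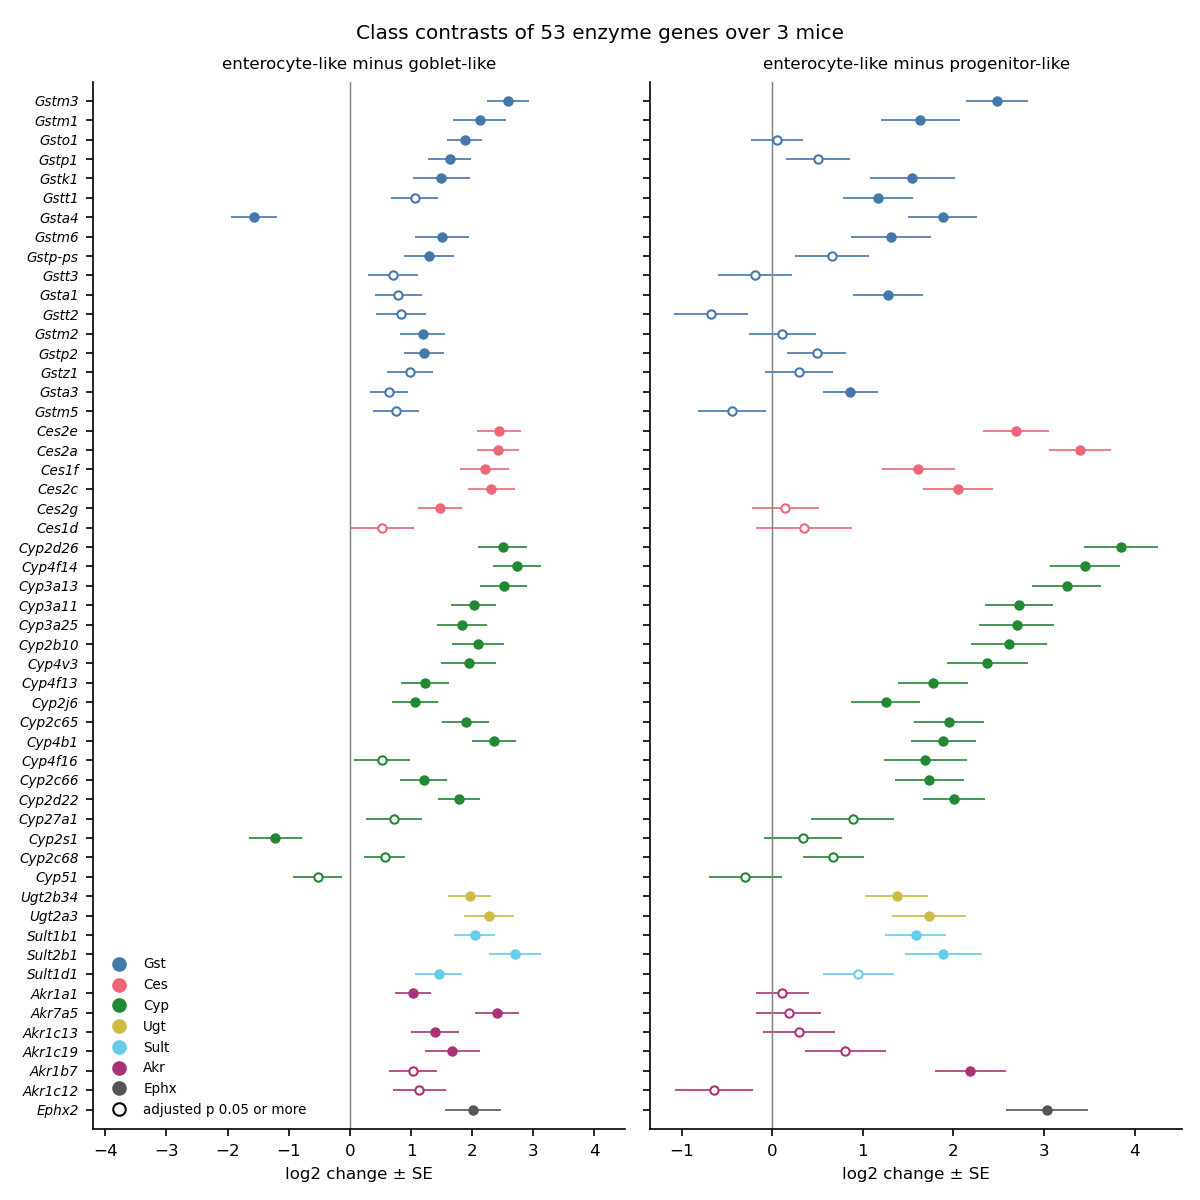
Log2 change ± SE of the 53 tested members, enterocyte-like minus goblet-like (left) and minus progenitor-like (right), coloured by family, with filled points for an adjusted p under 0.05. Gsta4 (-1.56) and Cyp2s1 (-1.22) are the 2 filled points left of zero, and in the right panel 5 of the 6 Akr genes are open.

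Other genes of the pathway were called in both comparisons. Of 60 such genes in both tables (regulators, redox partners, cofactor supply, other enzymes and efflux transporters), 59 were tested, 41 were higher and 0 lower in enterocyte-like than in goblet-like cells, and 27 were higher and 1 lower than in progenitor-like cells. These are 69.5% and 47.5% of those tested, against 24.5% and 32.9% of all genes. All 4 redox partners that feed electrons to P450s were higher in both, among them Por by 2.09 ± 0.40 and 2.21 ± 0.40. Of the regulators 5 of 9 and 3 of 9 were higher, and Nr1i3, which encodes the xenobiotic receptor CAR, was higher by 2.90 ± 0.42 and 1.70 ± 0.42. The PXR gene Nr1i2 was higher than in goblet-like cells by 1.87 ± 0.45. Abcc2, an exporter of conjugates, was higher by 2.64 ± 0.42 and 3.47 ± 0.42, with levels of 1.44, 4.17 and 7.42 against 0, 0.52 and 1.44 in goblet-like and 0.03, 0.16 and 0.38 in progenitor-like samples. The gene lower in enterocyte-like than in progenitor-like cells was Aldh1b1, a mitochondrial aldehyde dehydrogenase, at 2.83, 4.06 and 9.28 against 10.4, 11.02 and 16.7, a change of -1.42 ± 0.35.

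The third comparison asked how the members vary along the villus. The labels do not give a cell's position, so enterocyte-like cells of each sample were ranked by a score of 10 upper-villus minus 13 lower-villus genes, none of them a member, and split into equal lower, middle and upper parts. These parts are defined from the data and are not groups of the study. Of the 54 members, 5 were higher and 7 lower in the upper than in the lower part, against 9.74% of all 5002 genes called higher and 12.7% called lower. The share of members called (22.2%) was close to that of all genes (22.4%), and the median log2 change, upper minus lower, was -0.22 over members and -0.10 over all genes. The sign of the member median depended on the setting. It was 0.28 without cluster 1 and 0.33 among cells with at least 5000 UMIs, against -0.07 over all genes in each. With the upper-villus genes of the score alone it was 0.18, and under the other settings run it was below 0. Without the mouse as a block 0 members and 0 of 5002 genes were called.

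The family sums varied between mice. Summed Cyp level was 28.0 ± 10.04, 42.5 ± 7.61 and 51.0 ± 20.2 in the lower, middle and upper parts (SD, n = 3 mice), and summed Akr level was 18.4 ± 2.59, 14.1 ± 2.57 and 13.1 ± 4.84. The Cyp sum went from 17.8 to 75.7 and from 17.5 to 67.7 between lower and upper parts in the anterior and posterior samples of mouse 1. In mouse 2 it went from 37.4 to 60.8 and from 38.1 to 39.2, and in mouse 3 from 27.5 to 32.1 and from 30.0 to 30.3. No test compared the families. Calls higher in the upper part were 2 of 19 Cyp, 1 of 6 Ces, 1 of 3 Sult and Ephx2, and calls lower were 4 of 6 Akr, 2 of 17 Gst and 1 of 6 Ces. The sum over all members was 143 ± 23.0, 171 ± 60.5 and 168 ± 78.9, and its direction differed between samples. Between lower and upper parts it went from 180 to 264, 179 to 211 and 125 to 96.2 in anterior mice 1, 2 and 3. In posterior mice 1, 2 and 3 it went from 129 to 227, 137 to 131 and 108 to 79.4.

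Cyp3a11 had the largest difference along the villus. Its levels in the lower part were 0.92, 5.34 and 0.59 in anterior mice 1, 2 and 3 and 0.68, 2.65 and 0.27 in posterior mice 1, 2 and 3, against 19.8, 8.58, 1.94, 18.3, 5.77 and 1.91 in the upper part. The upper part was higher in 6 of 6 samples, but the groups overlapped, since both samples of mouse 2 were higher in the lower part than mouse 3 was in the upper part. The change was 2.31 ± 0.44 (adjusted p = 0.0011). Its relative Cyp3a13 had lower-part levels of 1.51, 2.88 and 4.85 (lowest, median, highest) and upper-part levels of 5.66, 6.86 and 12.5, with no overlap, and a change of 1.31 ± 0.32 (adjusted p = 0.0066). These 2 genes were the only members called in each of the 3 fits that leave out a mouse.

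The other 3 members that rose toward the upper part were Sult2b1, Ces2a and Ephx2. Sult2b1 stood at 1.01, 2.25 and 6.47 (lowest, median, highest) in the lower and 2.97, 6.83 and 8.38 in the upper part, a change of 1.28 ± 0.32 (adjusted p = 0.0079). Ces2a stood at 1.61, 7.97 and 12.3 against 4.31, 14.2 and 32.6, a change of 1.26 ± 0.28 (adjusted p = 0.0039). Ephx2 stood at 0.99, 2.03 and 4.13 against 1.60, 5.36 and 8.28, a change of 1.16 ± 0.33 (adjusted p = 0.017). All 3 were higher in 6 of 6 samples with overlap between mice, and each lost its call without 1 mouse: Sult2b1 and Ces2a without mouse 3 (adjusted p = 0.058 and 0.059) and Ephx2 without mouse 1 or mouse 2 (0.084 and 0.17).

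The members that fell were led by the Akr1c cluster. Akr1c13 stood at 4.05, 1.87 and 2.11 in the lower part of anterior mice 1, 2 and 3 and at 3.10, 0.76 and 1.1996 in the posterior mice, against 2.05, 0.43, 1.175, 1.40, 0.08 and 0 in the upper part. The upper part was lower in 6 of 6 samples, and the change was -1.50 ± 0.34 (adjusted p = 0.0043). Akr1c19 fell by 1.47 ± 0.37 on the log2 scale (adjusted p = 0.0086) and Akr1c12 by 1.26 ± 0.36 (adjusted p = 0.019), both in 6 of 6 samples. The fourth reductase, Akr7a5, changed by -1.22 ± 0.33 (adjusted p = 0.014) and was lower in 5 of 6 samples, with posterior mouse 1 opposite at 2.42 in the lower and 3.98 in the upper part.

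Ces2g, in the same gene cluster as Ces2a, changed the other way, by -1.25 ± 0.39 (adjusted p = 0.028). It fell in 5 of 6 samples, from 2.23, 1.71 and 1.183 to 1.43, 0.41 and 0 in anterior mice 1, 2 and 3, and was at 0 in both parts of posterior mouse 2. Among glutathione transferases, Gstm2 changed by -1.23 ± 0.35 (adjusted p = 0.018) and Gstp1, the pi-class enzyme, by -0.94 ± 0.33 (adjusted p = 0.048), both lower in 6 of 6 samples. Gstp1 shares 78.7% of the 40-base words at its 3′ end with its copies, so its UMIs and those of Gstp2 and Gstp-ps may have been split among them. All 4 Akr genes, Ces2g, Gstm2 and Gstp1 lost their call in at least 1 of the 3 fits that leave out a mouse.

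**Figure D3:**
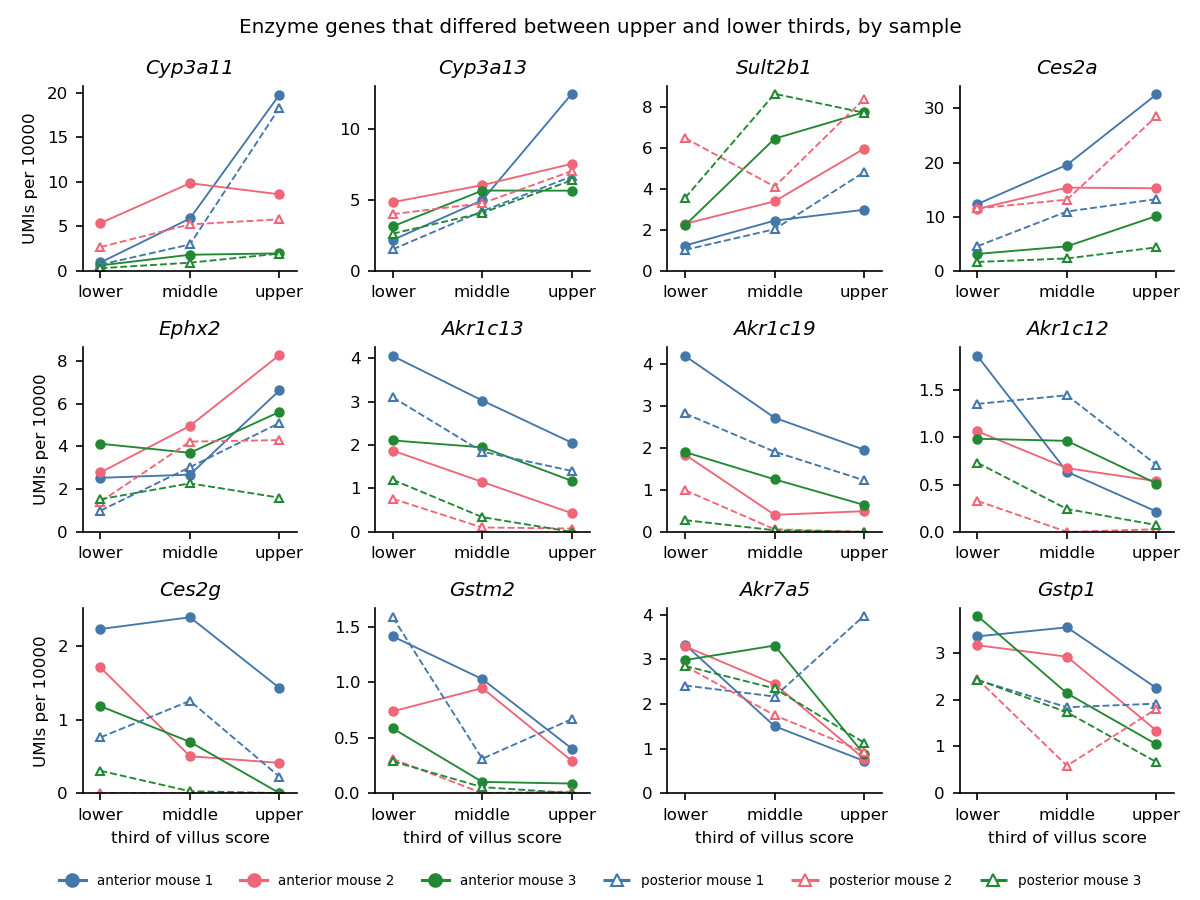
Level (UMIs per 10000) of the 12 members called between upper and lower parts of the villus score, in the lower, middle and upper part of each sample, with solid lines for anterior and dashed lines for posterior samples. Cyp3a11 reaches 19.8 and 18.3 in the upper part of both samples of mouse 1 and 1.94 and 1.91 in those of mouse 3, while the Akr1c genes are lower in the upper part in all 6 samples.

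Other measures moved along the same score, and their part in the position results was not tested. Malat1, a nuclear RNA, was higher in the upper than in the lower part in 6 of 6 samples, from 9.05 to 56.5 in lower and from 41.9 to 231 in upper parts. The median UMI count of a cell was 9709 to 12478.5 in the lower parts and 1817 to 9132 in the upper parts, and the summed level of 13 goblet markers was 57.7 to 107 in the lower and 108 to 204 in the upper parts. A fit was also run on enterocyte-like cells with at least 1500 UMIs, each thinned to 1500 and split into parts anew. These were 82 to 188 of the 88 to 222 cells of a sample, and the shallower cells were left out. In that fit 8 of 53 members and 640 of 4932 genes were called, and 6 of the members are shared with the 12. Without cluster 1, 12 were higher and 5 lower (8.43% and 15.4% of all genes). Among cells with at least 5000 UMIs, 22 were called, 16 higher and 6 lower (8.47% and 15.3% of all genes), of which 9 are shared, and the additional higher ones were mostly P450s (Cyp2b10, Cyp2d26, Cyp3a25, Cyp4b1 and others). When clusters were named against the mean of the other cells, clusters 6 and 8 (257 cells) left the enterocyte-like class, 1 member (Gstm1, lower) and 41 of 4679 genes were called, and Cyp3a11 changed by -0.16 and Cyp3a13 by -0.04. Reg3b and Reg3g, which are among the leading genes of these 2 clusters, are also among the 13 lower-villus genes of the score.

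Of the 60 other pathway genes, 3 were higher and 11 lower in the upper part, or 23.3%, which is close to the 22.4% of all genes. Por, the P450 reductase, stood at 0.68, 1.77 and 2.33 (lowest, median, highest) in the lower and 2.33, 5.92 and 9.65 in the upper part, a change of 1.72 ± 0.35 (adjusted p = 0.0018). Xdh, xanthine dehydrogenase, rose by 1.33 ± 0.32 and the lipid peroxide reductase Gpx4 by 1.04 ± 0.30. Gpx1, a glutathione peroxidase, stood at 10.3, 23.1 and 25.3 in the lower and 2.36, 2.90 and 12.2 in the upper part, a change of -2.21 ± 0.35 (adjusted p = 0.00029). Gpx2 changed by -1.62 ± 0.30, Mgst1 by -1.60 ± 0.33, Prdx1 by -1.52 ± 0.29, Adh5 by -1.47 ± 0.41 and Mgst2 by -1.16 ± 0.33.

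**Figure D4:**
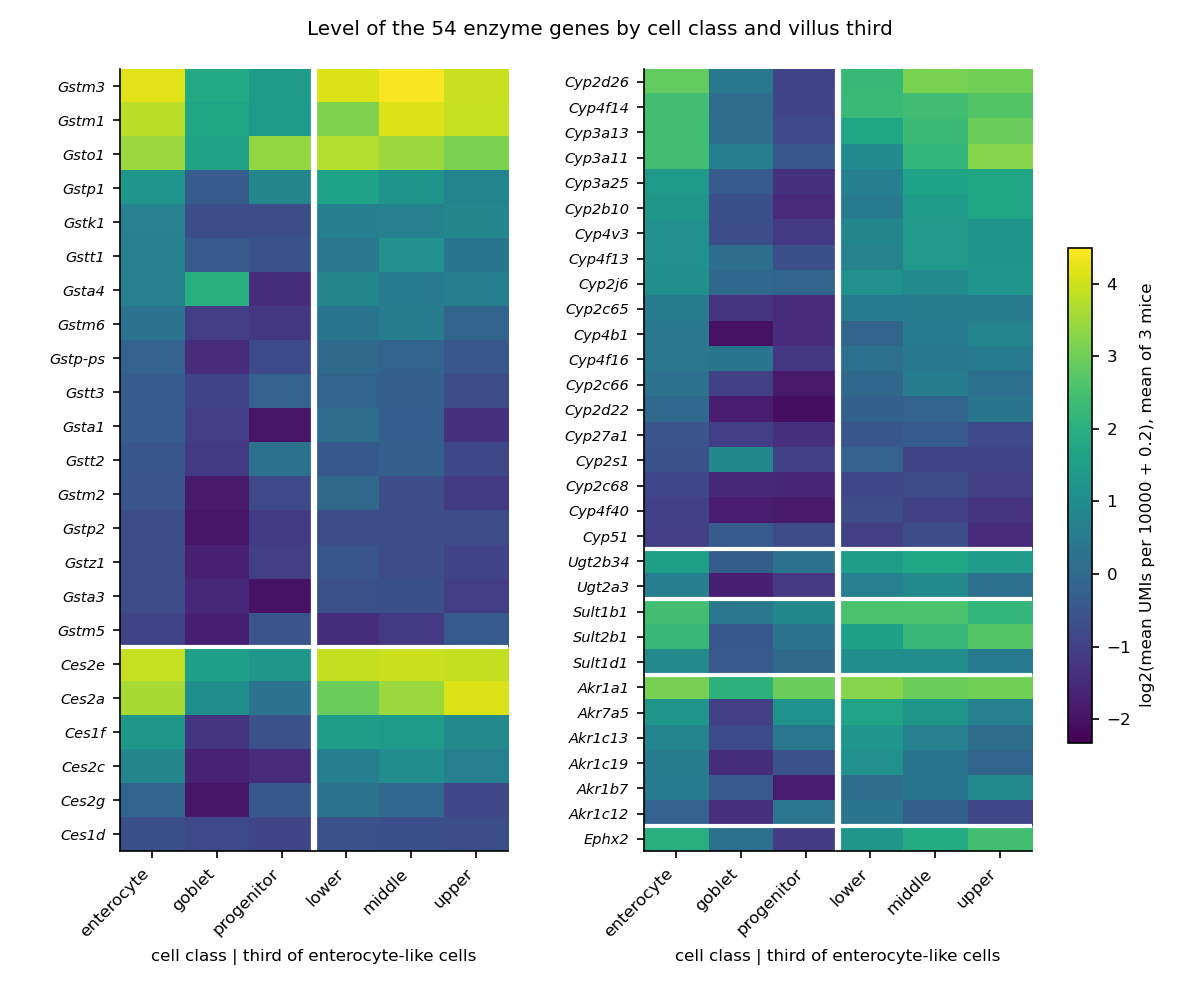
Level of the 54 members as log2(UMIs per 10000 + 0.2), mean of 3 mice, in the 3 cell classes and in the 3 parts of the villus score of enterocyte-like cells, ordered by family and by enterocyte-like level. Gsta4 (3.68) and Cyp2s1 (1.62) are brightest in goblet-like cells, Gsto1 and Akr1a1 are alike in enterocyte-like and progenitor-like cells, and Cyp3a11 brightens from the lower to the upper part.

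The fourth comparison asked whether the members differ between anterior and posterior jejunum. In enterocyte-like cells 0 of 54 members and 0 of 5002 genes (0%) were called (limma, 3 samples against 3, anterior minus posterior). The smallest adjusted p of a member in this limma fit was 0.998, and at an unadjusted p under 0.05 there were 7 members and 218 genes. In this and the other fits between regions the 2 samples of a mouse were not paired, unless the mouse is named as a block. The median log2 change was 0.52 over members and 0.09 over all genes. The sum over members was 239, 202 and 112 in anterior mice 1, 2 and 3 and 180, 132 and 97.0 in posterior mice 1, 2 and 3, so each mouse was higher in the anterior sample but the regions overlapped. By family the median change was 0.59 for Gst (16 of 17 above 0), 0.73 for Ces, 0.87 for Akr, 0.32 for Cyp, 0.11 for Ugt and -0.39 for Sult (0 of 3 above 0).

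In 4 members the 3 anterior samples lay above the 3 posterior samples, against 6.12% of all genes: Gsta4, Gstt1, Gstp1 and Ephx2. In 2 the posterior samples lay above, against 3.72% of all genes: Cyp4f14 and Cyp4f16. These shares of the members (4 and 2 of 54) are close to those of all genes. Gsta4 stood at 3.08, 1.49 and 1.68 in anterior and 1.14, 0.24 and 0.58 in posterior mice 1, 2 and 3, a change of 1.503 ± 0.47. Gstt1, a theta-class transferase, stood at 1.25, 3.17 and 1.71 against 1.08, 0.58 and 0.56, a change of 1.205 ± 0.42. Cyp4f14 stood at 3.75, 5.00 and 4.18 against 5.48, 5.83 and 7.42. None of these 3 passed the threshold once adjusted over all genes.

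The carboxylesterases Ces1f and Ces2g were higher in the anterior sample of every mouse, but their regions overlapped. Ces1f stood at 4.24, 3.73 and 1.86 against 3.04, 0.20 and 0.31, a change of 1.93 ± 0.71. Ces2g stood at 2.02, 0.88 and 0.63 against 0.75, 0 and 0.11, a change of 1.69 ± 0.59. In posterior mouse 2 no UMI of Ces2g was found, which allows a level of up to 0.0223 (3 UMIs of the class total, counting error only). Akr1b7 changed by 1.02 ± 0.44 and the CAR target Cyp2b10 by 1.07 ± 0.48, both higher in the anterior sample of 3 of 3 mice.

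With the mouse as a block, 0 members were called over 3 mice, but 5 were called, all higher in the anterior, when mouse 1 was left out as well. They were Ces1f (2.67 ± 0.44, adjusted p = 0.00040), Ces2g (1.92 ± 0.48), Gstt1 (1.72 ± 0.40), Gstm3 (1.52 ± 0.29, adjusted p = 0.0023) and Gstm1 (1.35 ± 0.33). In that fit 0.63% of 4765 genes were called higher and 1.11% lower. It rests on 2 mice, and the block was not run without mouse 2 or without mouse 3, so it does not show that mouse 1 differs from them in this.

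The mu-class transferases Gstm1 and Gstm3 varied more between mice than between regions. Gstm1 stood at 40.1, 13.1 and 1.87 in anterior and 21.9, 3.51 and 0.95 in posterior mice 1, 2 and 3, and Gstm3 at 42.3, 28.5 and 5.11 against 21.4, 8.62 and 1.91. In both genes and both regions mouse 1 was highest and mouse 3 lowest. Within cluster 2 alone the sample level of Gstm1 ran from 1.51 to 63.9, with 17 and 11 cells in the samples of mouse 1. The part of cluster make-up in the difference between mice was not tested. Summed Gst level followed, at 109, 73.0 and 27.9 in anterior and 67.8, 28.5 and 18.9 in posterior mice. Gstm1 shares 26.1% of the 40-base words at its 3′ end with other genes, Gstm3 among them, while Gstm3 shares 0% of its own. Goblet marker sums in enterocyte-like cells were 122 to 178 in anterior and 76.8 to 145 in posterior samples, and their part in the regional values was not tested.

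**Figure D5:**
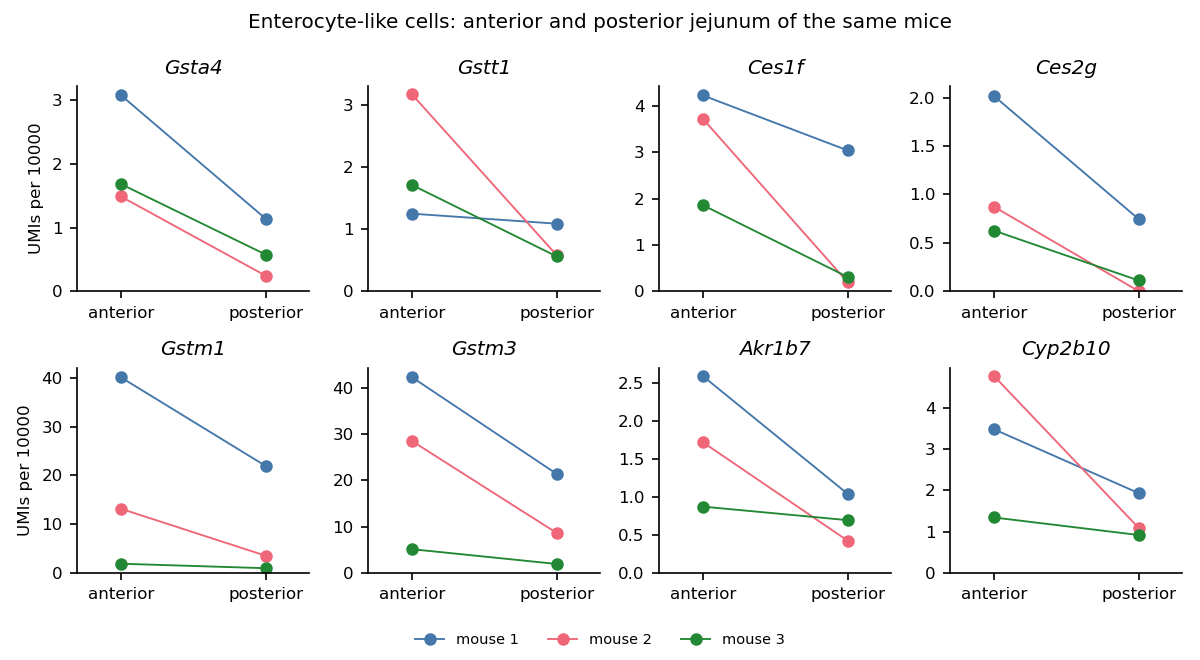
Level (UMIs per 10000) of 8 members in enterocyte-like cells of anterior and posterior jejunum, with lines joining the 2 samples of a mouse. The members are those with the smallest unadjusted p between regions, and Gstm1 and Gstm3. Every line falls from anterior to posterior, which follows in part from this choice. Cyp4f14 and Cyp4f16, higher in the posterior samples, are not shown. Only Gsta4 and Gstt1 have no overlap between regions, and Gstm1 and Gstm3 differ more between mice (40.1, 13.1 and 1.87 for anterior Gstm1) than between regions.

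In goblet-like cells 39 members were tested and 0 were called, against 0.0234% of 4273 genes, with 1 member and 135 genes at an unadjusted p under 0.05. That member, Cyp4f16, stood at 0.23, 0.42 and 0.27 in anterior and 0.32, 1.82 and 3.28 in posterior mice 1, 2 and 3, a change of -1.62 ± 0.77, with overlap. Cyp51 stood at 0.82, 1.12 and 0.79 against 0.26, 0.04 and 0.46 and was without overlap. In 3 members (Cyp51, Gsta4 and Gsto1) anterior samples lay above all posterior ones, against 3.7% of genes, and in 0 the reverse, against 3.09%. Gsta4 stood at 3.86, 3.71 and 4.68 against 3.15, 3.66 and 3.00, so its regional order was the same as in enterocyte-like cells with a smaller gap.

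In progenitor-like cells 40 members were tested and 0 were called, against 0% of 4835 genes, with 3 members and 272 genes at an unadjusted p under 0.05. Posterior mouse 2 had 9 such cells and gave no value, so this fit compares 3 samples with 2. Ces2a stood at 2.76, 0.64 and 1.15 in anterior mice 1, 2 and 3 and 0.76 and 0.06 in posterior mice 1 and 3, a change of 1.59 ± 0.61. Akr1c13 stood at 2.11, 0.73 and 1.85 against 0.66 and 0.41, a change of 1.182 ± 0.48. In 7 members anterior samples lay above all posterior ones (11.8% of genes) and in 3 the reverse (9.82% of genes).

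The difference between enterocyte-like and goblet-like cells was tested directly for a change with region, and so was the difference between upper and lower parts. For the class contrast 0 of 53 members were called, against 0% of 4929 genes, with 2 members and 112 genes at an unadjusted p under 0.05. They were Ces2g, whose enterocyte-like excess was larger in the anterior by 1.57 ± 0.67, and Cyp51, whose contrast changed by -1.64 ± 0.72. For the position contrast 0 of 54 members were called, against 0.02% of 5002 genes, with Gstk1 alone at an unadjusted p under 0.05 (1.38 ± 0.65). A p above the threshold with 3 mice does not show that the contrasts are alike in the 2 regions.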

How the data were processed

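STAR 2.6.1b, UMI-tools 1.0.0, R 3.5.1, cutadapt 1.18 and bcl2fastq were used on GRCm38/mm10, per the submitters' processing notes. The authors deposited 1 table per region of log2 values, corrected per gene and partly below 0. Undoing the correction gave whole UMIs for 100% of values in both tables (tolerance 0.01). No column lacked a sample (0 unmapped). Levels are UMIs per 10000 over the 5674 shared genes, averaged over cells. Cells were clustered jointly (1500 variable genes, 25 components, 15 neighbours, Leiden resolution 1, leidenalg 0.10.2) without members and 60 pathway genes, and named from 11 marker lists against the median cluster. No doublet caller was run, since wells held single sorted cells. limma 3.58.1 (R 4.3.3, trend) was run on log2(mean + 0.2) where the mean level reached 0.2, with Benjamini-Hochberg adjustment over all genes and a threshold of 0.05. Class and position fits used per-mouse means with the mouse as block (a class needed 10 cells in a sample). Region fits compared 3 samples with 3, with the block as an alternative, since the labels give same-numbered samples the same mouse. The correlation of their deviations over 5002 genes was 0.55, 0.11 and 0.37 for mice 1, 2 and 3. Between samples of different mice it ran from -0.50 to 0.34, the latter for anterior mouse 3 with posterior mouse 2. These values therefore set only mouse 1 clearly apart. Fits were tested on simulated data. Genes named are the 3 highest per family, the 8 largest changes among those called, or the 6 smallest p where fewer than 4 were called. Other genes named, among them Gsta4 and Cyp2s1 in the class comparison, were chosen after their values were seen. Members and lists were chosen with earlier results of these data known. Gene positions are from GENCODE vM21.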

Additional observations from a re-analysis of the deposited data

How the results depend on the processing

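Members called between classes kept their direction under every setting run, except Cyp2s1 under 2 settings. Of 1187 single-gene values under other settings, 1067 kept direction and side of the threshold, 107 lost the call, 3 gained one and 10 changed sign. Enterocyte-like against goblet-like cells gave 39 called members (1304 of 5314 genes). There were 22 of 22 tested with a minimum level of 1 (829 of 1650 genes) and 23 of 50 with posterior samples only (643 of 5218 genes). When 1 mouse was left out there were 26 to 31 (638 to 1021 genes). Against progenitor-like cells there were 32 (1747 genes). There were 17 of 22 tested with a minimum of 1 (818 genes) and 13 of 50 with posterior samples only (455 genes). Without 1 mouse there were 25 to 29 (723 to 1674 genes). Upper against lower parts gave 12 (1122 of 5002 genes). Summed UMIs gave 20 (1365 of 4926 genes) and clusters named against the mean gave 1 (41 of 4679). Anterior samples alone gave 7 (632 of 4916) and posterior samples alone 4 (318 of 4854). The score split into 2 parts gave 5 (503 of 5002), and cells with at least 5000 UMIs gave 22 (1146 of 4826). Without 1 mouse there were 5 to 13 (374 to 897 genes), with the 5 being without mouse 3. The 3 comparisons of classes and position use the mouse as a replicate block. Without it 33, 29 and 0 members were called, with 1130 and 1579 of 5314 genes and 0 of 5002 genes. Between regions in enterocyte-like cells there were 0 members with or without the replicate block (5 and 0 of 5002 genes). With the block and without mouse 1 there were 5 (83 of 4765 genes), a fit that was not possible in progenitor-like cells. The block was not combined with leaving out mouse 2 or mouse 3. The values that changed sign were Cyp2s1 against goblet-like cells (0.12 among cells with at least 5000 UMIs and 0.18 with cluster 7 only), Cyp3a11 (-0.16) and Cyp3a13 (-0.044) by position with clusters named against the mean, Cyp4f13 between regions in goblet-like cells (0.29, at least 5000 UMIs) and Cyp3a25 in the class contrast by region (-0.32, the same setting). In the position contrast by region they were Cyp4f16 (-0.33, named against the mean), Cyp2d22 (0.030 without cluster 1, 0.54 at 5000 UMIs) and Ces2g (0.27 without cluster 1). The cause was not tested. Leaving out cluster 1, the limit of 5000 UMIs and cluster 7 only were chosen after seeing the data. Depth limits low members: a count of 0 in an upper part allows a level of up to 0.104 to 0.167.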

Other observations

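Cells outside the main classes held some members at levels above all 3 classes. These are values with no test, since few samples had 10 or more such cells. Cluster 10 (117 unnamed cells, led by Chgb, Reg4, Gip, Cck, Chga and Sct, which are genes of hormone-secreting cells) had Gstt1 at 6.39 UMIs per 10000 over its cells, from 326 UMIs in 35 cells, which is 4.60 times the highest class level. Summed over the cluster the level was 7.08, with a Poisson 95% interval of 6.34 to 7.90 that covers counting error only. By sample it stood at 5.43, 16.8 and 20.3 in anterior mice 1, 2 and 3 (60, 8 and 6 cells) and at 4.23, 2.62 and 3.20 in posterior mice 1, 2 and 3 (32, 7 and 4 cells), so every sample lay above the enterocyte-like mean of 1.39. Cyp4b1, a P450 of fatty acids and aromatic amines, stood at 2.67 there (2.36 times), Cyp2c68 at 0.98 (2.84 times) and Gstz1, an enzyme of tyrosine breakdown, at 0.86 (2.10 times). Cyp2c68 shares 42.5% of the 40-base words at its 3′ end with other genes. In contrast, Ces2e stood at 1.32 and Gsta4 at 0.13 in this cluster. Unnamed cluster 9 (118 cells) had some members above all 3 classes in the mean over its cells, from few UMIs. Gstp2 stood at 1.21 (2.89 times, 8 UMIs in 3 cells) and Ces1d at 1.00 (2.29 times, 9 UMIs in 5 cells). Akr1b7 stood at 2.41 (1.97 times, 30 UMIs in 9 cells) and Cyp4f13 at 3.09 (1.56 times, 33 UMIs in 6 cells). Summed over the cluster, which weights cells by their UMIs, Gstp2 stood at 0.387, Ces1d at 0.4358 and Cyp4f13 at 1.60. These were not above the highest class levels of 0.418, 0.4362 and 1.98, and for Ces1d the values were nearly equal. The class levels are means over cells, so the measures are not alike. By the same comparison the Akr1b7 sum remained above the highest class level, at 1.45 against 1.22. The 38 tuft-like cells had Cyp4f40, a P450 too low for the class tests, at 1.12, from 11 UMIs in 6 cells (3.71 times the highest class level).

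The anterior table listed 14 further genes of these families that the posterior table did not list, or 20.6% of its 68 family genes, against 17.03% of all its genes, and none was listed in the posterior table alone. They were Akr1b8, Akr1c14, Akr1e1, Ces1e, Ces1g, Cyp2c55, Cyp2u1, Ephx1, Gstm4, Gstm7, Gstp3, Ugt2b35, Ugt2b36 and Ugt2b5. The sources used here do not say how genes were chosen for each table, so a gene missing from a table has no level there. No level of these genes was compared between regions.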
